A study of Mus musculus with 6 samples.

Results

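The genes described here encode subunits of the receptors for GABA and the protein gephyrin, which were measured in mouse fetal cortical cultures given 10HDA or vehicle. They are Gabra2, Gabra3, Gabra5, Gabrb1 and Gabrb2 (α and β subunits of the GABA-A receptor), Gabbr1 and Gabbr2 (both subunits of the GABA-B receptor) and Gphn (gephyrin). They were chosen by symbol, and their rows are 8 of the 43346 genes in the count table. All 8 passed the filter on low values, as did 10520 genes in all. GENCODE release M21 (GRCm38) paired 98% of the identifiers in the table with a symbol.

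10HDA (10-hydroxy-2-decenoic acid) is a fatty acid of royal jelly. Primary cortical cells were taken from fetuses at gestational day 15.5 and given DMSO, the vehicle, or 10HDA at 1 mM, with 3 libraries per treatment. The labels give 1 library of each treatment for each of replicates 1, 3 and 4, and a replicate number is read here as a culture. They name the strain as Cyp19-EGFP (a transgenic reporter for the aromatase gene, carried by both groups) and call every fetus SRY+. In the methods the strain is C57BL/6. How many fetuses made up a culture, and how long the cells were exposed, is not given in the sources used here. The comparison addresses which transcripts of cortical cells differ in level after 10HDA.

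The libraries held from 9144736 to 13367194 counts, at which 3 counts are worth 0.22 to 0.34 CPM (counts put on the scale of equal library sizes, here by the trimmed mean of M-values, TMM). Culture 1 stood apart against its label, since the summed Y-linked genes reached 9.07 CPM with vehicle and 9.30 CPM with 10HDA there and 97.8 to 136 CPM in the other 4 libraries. The female-linked transcript Xist was high in every library, at 430 to 1032 CPM with vehicle and 403 to 1444 CPM with 10HDA. Cultures 3 and 4 therefore also went against the label, and leaving out culture 1 does not leave male cells alone. Values without culture 1 are given beside the results. Neuronal markers were abundant in every library (the 12 shared neuronal markers summed to between 7399 and 9452 CPM), those of interneurons summed to 522 to 786 CPM and those of astrocytes to 605 to 1016 CPM, so the cultures held several cell types. Microglial markers summed to at most 1.099 CPM, and the microglial gene Tmem119 had no count in any library.

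GABA is the main inhibitory transmitter of the mature cortex. The GABA-A receptor is a chloride channel built of several subunits, usually α, β and γ, and the α subunit sets much of its kinetics, its drug sensitivity and its place at or outside the synapse. The GABA-B receptor is a G protein-coupled receptor formed by GABBR1, which binds the ligand, and GABBR2, which couples to the G protein. Gephyrin is the scaffold that holds GABA-A and glycine receptors at inhibitory synapses, and it also makes the molybdenum cofactor. In the fetal cortex the receptors are rich in α2, α3 and α5, and in immature neurons, which hold much chloride, GABA can depolarize the cell.

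The α3 gene, Gabra3, was lower with 10HDA and was the 1 gene of the 8 to pass the threshold (adjusted P under 0.1). The promoters of Gabra3 and of Gabra5, the α gene with the highest level per kilobase and no call, are shown to set their base composition side by side. Each run is the 250 bases before the start of the gene listed first in RefSeq (GRCm38.p6), 5′ to 3′ on the strand of the gene. The runs lie at chrX:72656920-72657169 (minus strand) for Gabra3 and at chr7:57510060-57510309 (minus strand) for Gabra5. Of the 8 genes Gabra3 and Gabrb1 had 2 listed starts, Gabrb2 had 3 and the others 1, and further starts were not searched. Neither window overlaps an annotated exon. Capitals mark a match to any of the motifs searched on both strands, namely the TATA box (TATAAA), the GC box (GGGCGG), the cyclic AMP response element (TGACGTCA) and the core of the antioxidant response element (TGACNNNGC).
Gabra3: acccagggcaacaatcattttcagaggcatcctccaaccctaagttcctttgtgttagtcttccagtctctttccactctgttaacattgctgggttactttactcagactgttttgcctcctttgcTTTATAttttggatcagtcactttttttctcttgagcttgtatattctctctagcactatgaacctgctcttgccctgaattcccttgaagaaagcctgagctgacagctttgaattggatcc
Gabra5: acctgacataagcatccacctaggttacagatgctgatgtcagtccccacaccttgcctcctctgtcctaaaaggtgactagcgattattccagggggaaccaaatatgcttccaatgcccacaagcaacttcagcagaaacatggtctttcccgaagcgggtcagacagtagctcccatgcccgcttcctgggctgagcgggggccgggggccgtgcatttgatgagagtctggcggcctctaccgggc
The Gabra3 window held 42.4% G and C and no CpG, and 17.6% of 27025 mouse promoters had a lower G and C content. Its only match was to the TATA box on the opposite strand, a motif that 12.97% of all promoters held. The Gabra5 window held 56.4% G and C and 9 CpG sites, against a median G and C content of 52.0% over all promoters, and no motif. The windows of the other 6 genes held from 58.8% to 80.8%. Annotated exons covered 250 bases of the Gphn window, 197 of the Gabrb1 window and 159 of the Gabbr2 window. The windows of Gphn and Gabrb2 lie within the GENCODE span of their gene. Among these 6 windows the TATA box was present in that of Gabrb2 alone, on the strand of the gene. The GC box, found in 32.9% of all promoters, was present in the windows of Gabra2, Gabrb2, Gabbr1, Gabbr2 and Gphn. The antioxidant element core (10.2% of promoters) was found in the Gabrb2 window alone of the 8, and the cyclic AMP element (1.62%) in none of them.

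Gabra3 (chrX:72432681-72656848, minus strand) encodes α3, a subunit of the receptors of developing cortex. With vehicle its level was 47.9, 53.2 and 53.9 CPM in cultures 1, 3 and 4, and with 10HDA it was 31.4, 34.1 and 38.2 CPM. All 3 treated libraries lay below all 3 vehicle libraries, and the level was lower within each culture, by log2 differences of -0.61, -0.64 and -0.49. The means were 51.7 ± 3.27 (SD, n = 3) and 34.6 ± 3.44 CPM (SD, n = 3). Gabra3 fell by 33.2%, a log2 fold change of -0.58 (SE 0.11, 95% confidence interval -0.83 to -0.33, edgeR quasi-likelihood test, adjusted P = 0.068). Of all genes tested, 0.428% were called lower and 0.200% higher. With culture as a term in the fit the change was -0.58 (SE 0.10, edgeR adjusted P = 0.00073). Without culture 1 it was -0.55, with an edgeR adjusted P of 0.43 at 2 libraries per treatment. The call was also lost on leaving out culture 3 (-0.55, adjusted P = 0.54), culture 4 (-0.62, 0.12), vehicle library 3 (-0.54, 0.20) or 4 (-0.53, 0.32), or 10HDA library 1 (-0.52, 0.50) or 3 (-0.57, 0.25) from the edgeR fit, and with scaling by library size alone (-0.51, adjusted P = 0.13).

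The other α genes among the 8 did not follow Gabra3. Gabra2 (chr5:70957597-71095849, minus strand) encodes α2, which binds gephyrin and is enriched at the axon initial segment. Its level was 28.7, 43.6 and 37.8 CPM with vehicle and 37.1, 34.6 and 43.1 CPM with 10HDA in cultures 1, 3 and 4. The groups overlapped, and the direction differed between cultures, with 10HDA higher in cultures 1 and 4 and lower in culture 3. The log2 fold change was 0.05 (SE 0.16, 95% confidence interval -0.29 to 0.40, edgeR adjusted P = 0.92), and -0.06 without culture 1.

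Gabra5 (chr7:57407672-57510059, minus strand) encodes α5, which is largely extrasynaptic. Its level was 102, 94.8 and 104 CPM with vehicle and 118, 88.8 and 123 CPM with 10HDA. The treated libraries lay on both sides of the vehicle range, and the log2 fold change was 0.13 (SE 0.13, 95% confidence interval -0.15 to 0.40, edgeR adjusted P = 0.73). It was 0.10 without culture 1.

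Of the β genes, Gabrb1 (chr5:71658113-72149037, plus strand) had the next largest difference. Its level was 21.8, 26.4 and 27.1 CPM with vehicle and 17.2, 16.1 and 21.3 CPM with 10HDA. The groups did not overlap, and 10HDA was lower within each culture, by log2 differences of -0.34, -0.71 and -0.35. The log2 fold change was -0.47 (SE 0.15, 95% confidence interval -0.80 to -0.14) and did not pass the threshold (edgeR adjusted P = 0.31). With culture as a term in the fit it did (-0.47, SE 0.12, edgeR adjusted P = 0.021), and it did so without 10HDA library 4 as well (-0.59, edgeR adjusted P = 0.084). Without culture 1 the log2 fold change was -0.50 (edgeR adjusted P = 0.69). The exons of Gabrb1 and of Gabra4 on the opposite strand share 46 bases in GENCODE, a small part of either transcript. The library kit kept strand, but the strand setting of the counting is not stated.

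Gabrb2 (chr11:42419757-42629028, plus strand) encodes β2, a common subunit of adult receptors. Its level was 23.5, 58.9 and 51.7 CPM with vehicle and 34.3, 36.1 and 45.3 CPM with 10HDA. The vehicle library of culture 1 was the lowest of all 6, at less than any treated library, while the vehicle libraries of cultures 3 and 4 were the highest. The log2 fold change was -0.22 with the widest interval of the 8 genes (SE 0.26, 95% confidence interval -0.80 to 0.36, edgeR adjusted P = 0.78). Without vehicle library 1 it was -0.50 (edgeR adjusted P = 0.17), without culture 1 it was -0.43, and without vehicle library 3 it was 0.05.

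The GABA-B genes were the most and the next most abundant of the 8 by counts. Gabbr1 (chr17:37045966-37075067, plus strand) had 584, 621 and 690 CPM with vehicle and 547, 559 and 565 CPM with 10HDA. All 3 treated libraries lay below the vehicle range and close together, with means of 632 ± 53.5 and 557 ± 9.24 CPM (SD, n = 3 each). The log2 fold change was -0.18 (SE 0.10, 95% confidence interval -0.40 to 0.04, edgeR adjusted P = 0.56), and -0.20 without culture 1. It did not pass with culture as a term (edgeR adjusted P = 0.29).

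Gabbr2 (chr4:46662305-46991873, minus strand) had 186, 198 and 271 CPM with vehicle and 177, 154 and 210 CPM with 10HDA. The groups overlapped because both libraries of culture 4 were the highest of their group, but 10HDA was lower in all 3 cultures, by log2 differences of -0.07, -0.36 and -0.37. The log2 fold change was -0.28 (SE 0.15, edgeR adjusted P = 0.56). With culture as a term it was -0.27 (SE 0.09) and lay at the edge of the threshold (edgeR adjusted P = 0.0996). Without culture 1 it was -0.35 (edgeR adjusted P = 0.80). Without vehicle library 4 it was -0.07.

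Gphn (chr12:78226379-78684772, plus strand) had 93.7, 88.8 and 97.95 CPM with vehicle and 82.3, 74.8 and 100.6 CPM with 10HDA. The 10HDA library of culture 4 was the highest of all 6 and those of cultures 1 and 3 the lowest. The log2 fold change was -0.12 (SE 0.12, 95% confidence interval -0.39 to 0.14, edgeR adjusted P = 0.73), and -0.07 without culture 1.

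**Figure D1:**
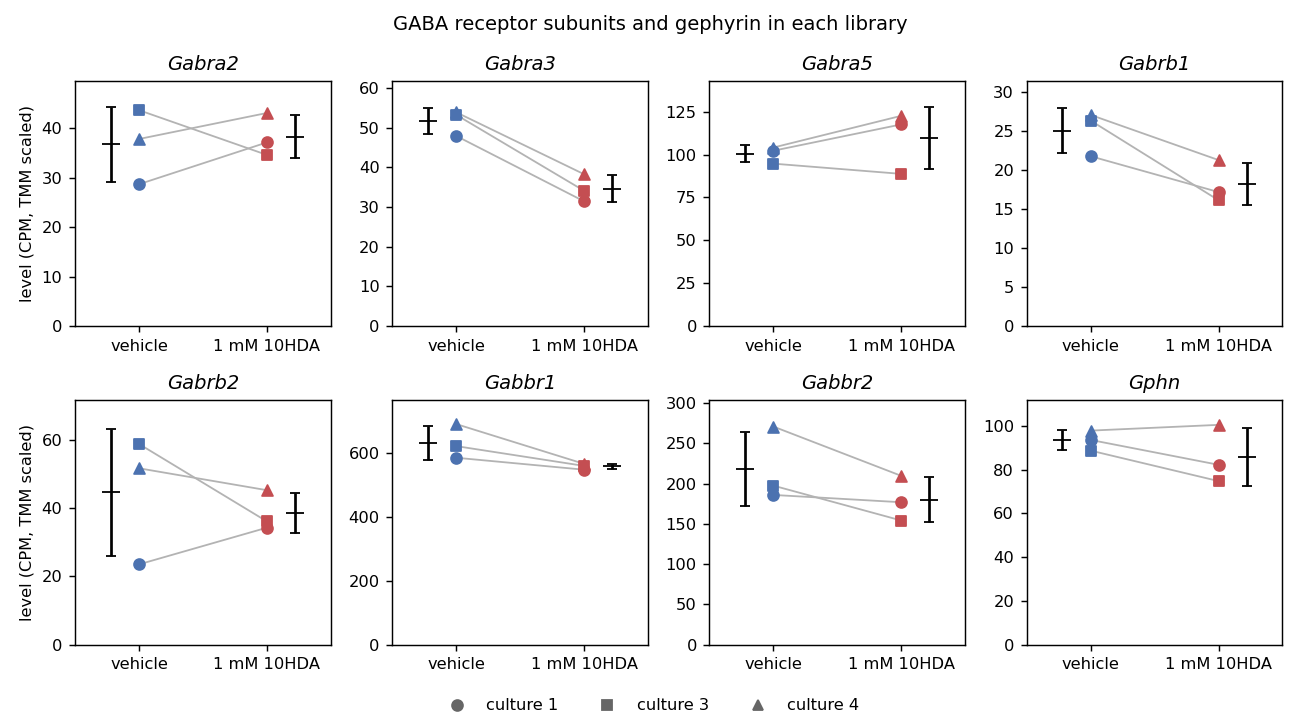
Levels of the 8 genes in each library, as TMM-scaled CPM on a linear axis from 0, with vehicle in blue and 1 mM 10HDA in red, 1 symbol shape per culture and a grey line joining both libraries of a culture. Black bars are the mean ± SD of 3 libraries. The 3 lines of Gabra3 run down with no overlap between groups, whereas those of Gabra2 and Gabrb2 cross.

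Over the 8 genes, 6 had lower and 2 had higher fitted levels with 10HDA. The median log2 fold change was -0.20, against -0.01 over all genes tested, of which 52.1% were lower. Groups did not overlap in 3 of the 8 (Gabra3, Gabrb1 and Gabbr1, all lower), against 7.44% of all genes in that direction. The level was lower in 3 of 3 cultures for 4 of the 8 (these 3 and Gabbr2), against 21.0% of all genes. By culture, 5 of 8 were lower in culture 1 (median log2 difference -0.08), 8 of 8 in culture 3 (-0.35) and 5 of 8 in culture 4 (-0.24). In all, 1 gene was called without a culture term and 3 with one (Gabra3, Gabrb1 and Gabbr2, all lower), where 5.08% of all genes were called lower and 3.91% higher. Gabra3 and Gabrb1 had an unadjusted p under 0.05 without the term, as had 5.67% of all genes in that direction. The median was -0.27 without culture 1, and -0.08 without vehicle library 4.

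**Figure D2:**
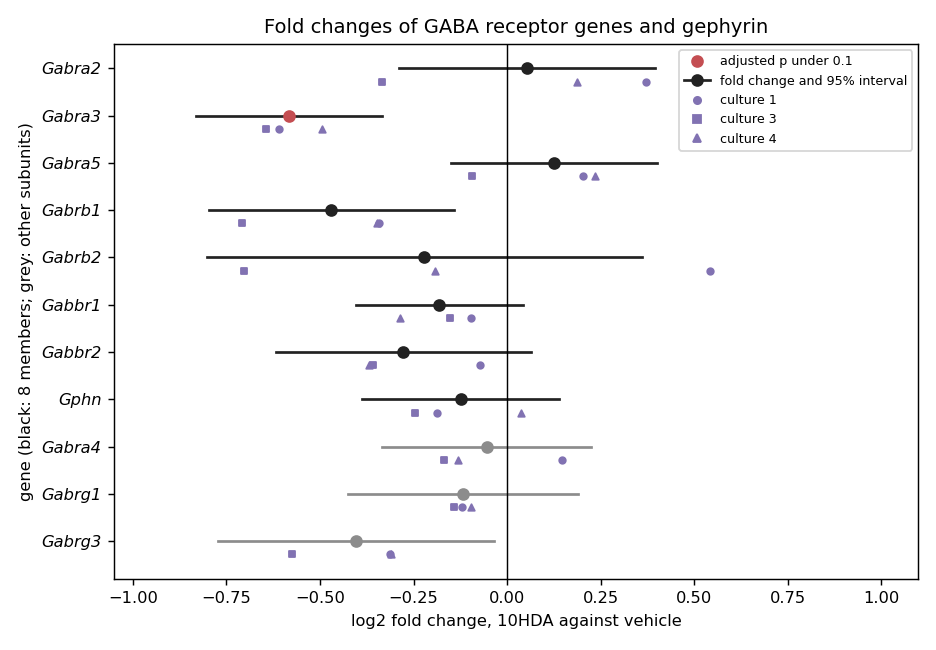
Fitted log2 fold changes of 10HDA against vehicle with 95% confidence intervals for the 8 genes (black, with the called gene in red) and for Gabra4, Gabrg1 and Gabrg3 (grey). Small symbols under each bar are the differences within cultures 1, 3 and 4. For Gabra3 and Gabrb1 the interval and all 3 cultures lie below 0, and Gabrg3 shows the same.

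The relative level of subunits of a class was then compared within libraries, a step added after the values of single genes had been seen. Levels between genes were compared per kilobase of the gene length deposited with the counts. These lengths are shorter than the exons of GENCODE M21 for some genes, 2392 against 7640 bases for Gabra2 and 3089 against 13838 for Gabrb1, so shares depend on the gene models. A share within a library does not depend on the scaling between libraries.

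With vehicle, Gabbr1 had the highest level of the 8 genes at 81.4 ± 6.89 CPM per kilobase (SD, n = 3), followed by Gabra5 (37.8 ± 1.88) and Gabbr2 (37.3 ± 7.88). Gphn stood at 27.5 ± 1.35 CPM per kilobase. Next came Gabra2 (15.3 ± 3.15) and Gabra3 (13.2 ± 0.83), then Gabrb1 (8.12 ± 0.93) and Gabrb2 (7.03 ± 2.94). Gabra5 and Gabbr2 did not differ beyond their spread, nor did Gabra2 and Gabra3, nor Gabrb1 and Gabrb2. The α4 gene Gabra4 (5.96 ± 0.52) was lower than Gabra2, Gabra3 and Gabra5 in every vehicle library. Gabra6, the α6 gene of cerebellar granule cells, had no count in the vehicle libraries, and Gabrp (π) and Gabrr3 (ρ3) had none in any library.

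Of the summed level per kilobase of Gabra2, Gabra3, Gabra4 and Gabra5, Gabra3 made up 17.9%, 18.5% and 18.2% in vehicle libraries and 10.8%, 14.03% and 12.2% in treated ones. The share was lower in every treated library, with means of 18.2% ± 0.282 and 12.4% ± 1.602 (SD, n = 3 each). An exact two-sided permutation test over libraries, without pairing, gave p = 0.1, the smallest that 3 against 3 can give. After adjustment over the 5 shares compared it was 0.5. The test decides nothing, because it could not pass the threshold and the shares were chosen after the values were seen. Gabra5 held the largest part, 52.4% ± 3.97 in vehicle and 57.3% ± 3.01 in 10HDA libraries (SD, n = 3 each), and its groups overlapped. The Gabra2 share overlapped too, at 21.1% ± 3.63 and 22.3% ± 1.197.

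Gabbr2 was 31.2% ± 2.64 of the summed GABA-B genes with vehicle and 29.9% ± 3.10 with 10HDA, an overlap.

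**Figure D3:**
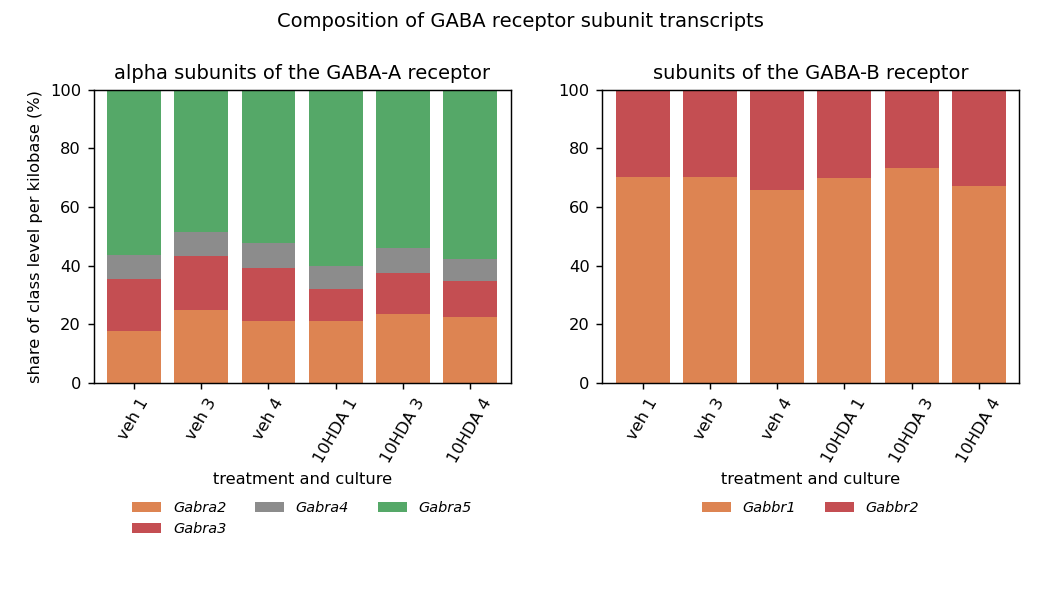
Share of each subunit gene in the summed level per kilobase of the genes plotted (percent, stacked to 100) in the vehicle (veh) and 10HDA libraries of cultures 1, 3 and 4. The red band of Gabra3 in the α panel spans 17.9% to 18.5% with vehicle and 10.8% to 14.03% with 10HDA.

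Counts of one subunit over another were also compared, without gene lengths. Gabra3 counts over Gabra5 counts were 0.468, 0.562 and 0.517 with vehicle and 0.267, 0.384 and 0.312 with 10HDA in cultures 1, 3 and 4. Gabra3 exceeded Gabra2 in every vehicle library, by ratios of 1.22 to 1.67, and was below it in every treated library, at ratios of 0.846 to 0.985. By level per kilobase Gabra2 stood above Gabra3 in the vehicle libraries of cultures 3 and 4, so their order there depends on gene length. In the vehicle library of culture 1 Gabra2 was below Gabra3 by this measure too (11.98 against 12.21 CPM per kilobase). Of 3 further ratios, Gabrb1 over Gabra2 (0.605 to 0.760 with vehicle, 0.463 to 0.495 with 10HDA) and Gphn over Gabra5 (0.916 to 0.940 and 0.699 to 0.843) were lower without overlap, and Gabbr2 over Gabbr1 overlapped. All 5 ratios were chosen after the values were seen, so no p is given for them.

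Several neuronal and glial markers had lower levels with 10HDA in the same libraries. In bulk RNA, fewer cells of a type and less RNA per cell cannot be told apart. Of the 12 shared neuronal markers 11 had lower fitted levels (median log2 fold change -0.24), and their sum ran from 8716 to 9452 CPM with vehicle and from 7399 to 8384 CPM with 10HDA. None was called (edgeR), 5 had an unadjusted p under 0.05, and 5 were called with culture as a term, among them Rbfox3 and Snap25. Of 12 tested interneuron markers 11 were lower (median -0.22), and the sums overlapped, at 626 to 786 CPM with vehicle and 522 to 716 CPM with 10HDA. None was called (edgeR), 2 had an unadjusted p under 0.05, and 5 were called lower with culture as a term (Dlx1, Dlx2, Sst, Npy and Calb2). This list shares Gad1, Gad2 and Slc32a1 with the GABA synthesis list. Of all genes tested, 5.67% were lower with an unadjusted p under 0.05, and 5.08% were called lower with culture as a term. The excitatory markers had a median of -0.15, with 6 of 9 lower and overlapping sums (1218 to 1484 and 1148 to 1345 CPM).

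Relative to the summed neuronal markers, Gabra3 was lower in every treated library, a log2 difference of -0.37. It stood at 5.50 to 5.91 per 1000 with vehicle and 4.11 to 4.604 per 1000 with 10HDA. The sum rests mostly on Map2, Dcx, Tubb3 and Stmn2, whose log2 fold changes ran from -0.25 to -0.13. Rbfox3 (-0.42) and Nefl (0.01) weigh little in it, at 110 and 70.2 CPM with vehicle. Whether Gabra3 differed within neurons was not tested. Relative to the excitatory markers the difference was -0.49, again without overlap, and relative to the interneuron markers it was -0.35 with overlapping groups. Gabrb1 overlapped relative to the neuronal markers (-0.25) and did not relative to the excitatory ones (-0.37). Gabbr1 and Gabbr2 overlapped in all 3, with differences from -0.17 to 0.05. These ratios too were added after the values were seen.

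Of 8 tested astrocyte markers 3 were called lower (Gfap, Aldh1l1 and Aldoc), the median was -0.55, and the sum ran from 802 to 1016 CPM with vehicle and from 605 to 731 CPM with 10HDA. Fitted levels were lower for 6 of these markers and higher for Fgfr3 (0.18) and Sox9 (0.06), neither of them called. Of 7 tested oligodendrocyte-lineage markers 1 was called lower (median -0.28), and of 6 tested radial glial markers none was (median -0.09). In the oligodendrocyte lineage fitted levels were lower for 5 markers and higher for Olig2 (0.24, without overlap) and Olig1 (0.06), neither of them called. The radial glial genes Vim (0.32) and Fabp7 (-0.41) had an unadjusted p under 0.05 in opposite directions, and both were called with culture as a term. Both tested markers of intermediate progenitors, Insm1 and Btg2, were higher in all treated libraries and not called in the main comparison, but called with culture as a term and in the fit without a filter. The other markers of this list, Eomes (means of 2.52 CPM with vehicle and 2.63 CPM with 10HDA) and Neurog2 (3.57 and 5.03 CPM), did not reach the filter. Their groups overlapped, with Eomes lower in 2 of 3 cultures and Neurog2 higher in each. The endothelial and pericyte markers summed to 17.6 to 19.3 CPM with vehicle and 8.16 to 11.3 CPM with 10HDA, with Pdgfrb called lower, and those of fibroblasts to 9.94 to 12.2 and 6.34 to 6.49 CPM. Pdgfrb (means of 15.7 and 7.38 CPM) made up most of the first sum, and Dcn (9.18 and 4.49 CPM) most of the second. The other markers of both lists averaged at most 1.08 CPM in either treatment. Among them Pecam1 and Kdr were lower without overlap, and the groups of the rest overlapped. The part of these cells in the levels of the GABA receptor genes was not tested. Of all genes tested, 0.428% were called lower in the main comparison. With culture as a term 5.08% were called lower and 3.91% higher, and without a filter 1.09% of 26859 genes were called higher.

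The other genes of GABA signaling were read from 6 lists, of which 44 of 64 genes passed the filter. None was called by the edgeR test, against 0.627% of all genes in both directions, although 3 had an unadjusted p under 0.05 (Gabrg3, Nsf and Abat). DESeq2 called 0 of them (4 with unadjusted p under 0.05), as did limma-voom (3). With culture as a term edgeR called these 3 genes, all lower, where 8.98% of all genes were called in both directions. Of the 44, 27 had lower fitted levels and 17 higher.

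Among the 6 other GABA-A subunits that passed the filter 5 had lower fitted levels (median log2 fold change -0.09). Gabrg3, which encodes γ3, stood at 18.7 ± 2.69 CPM with vehicle and 14.2 ± 2.66 CPM after treatment (SD over 3 libraries). Its log2 fold change was -0.40 (SE 0.17, edgeR adjusted P = 0.45, and 0.069 with culture as a term).

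Of 18 tested genes of the inhibitory postsynapse and receptor-associated proteins, 13 had lower fitted levels (median -0.11). Nsf, an ATPase of membrane fusion that takes part in receptor trafficking, was at 200.3 ± 12.2 CPM with vehicle and 160.4 ± 15.3 CPM with 10HDA, with no overlap. Its log2 fold change was -0.32 (SE 0.10, edgeR adjusted P = 0.31, and 0.034 with culture as a term). Shisa7, a GABA-A auxiliary protein, had a log2 fold change of -0.27 (adjusted P = 0.53) and the glycine receptor gene Glra2 -0.19 (adjusted P = 0.56).

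Of the 7 tested genes of GABA synthesis, transport and breakdown, 5 had lower fitted levels (median -0.05). Abat, the transaminase that breaks GABA down, was at 111 ± 1.99 CPM with vehicle and 90.4 ± 4.63 CPM with 10HDA, again with no overlap. Its log2 fold change was -0.30 (SE 0.09, edgeR adjusted P = 0.30, and 0.057 with culture as a term). Gad2, which encodes a GABA-synthesizing enzyme, had a log2 fold change of -0.20 (adjusted P = 0.58).

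The GABA-B auxiliary subunits and Kir3 channels had 4 tested genes, 3 with lower fitted levels (median -0.12). The smallest p-values belonged to the auxiliary subunit gene Kctd12 (0.19, edgeR adjusted P = 0.65), the Kir3 channel gene Kcnj9 (-0.19, 0.73) and Ajap1, whose product binds GABA-B receptors (-0.13, 0.79). The list of 6 chloride transporters and channels had 5 genes with higher fitted levels and a median of 0.16. Of these 6, Slc12a2 and Slc12a5 help to set whether GABA depolarizes or hyperpolarizes a cell. Clcn3 had a log2 fold change of 0.24 (edgeR adjusted P = 0.51), Clcn2 0.21 (0.58) and Slc12a2, the chloride importer NKCC1, 0.15 (0.67). The importer's counterpart, the exporter KCC2 (Slc12a5), was the gene of this list with a lower fitted level (-0.11, edgeR adjusted P = 0.76). It was at 179 ± 19.3 CPM with vehicle and 166 ± 19.6 CPM with 10HDA. The last list held genes of molybdenum cofactor synthesis, in which gephyrin also takes part, and of enzymes that need the cofactor. Its 3 tested genes, the synthesis genes Mocs2 (0.17) and Mocs3 (0.06) and the enzyme gene Suox (0.13), had higher fitted levels (edgeR adjusted P from 0.68 to 0.91). Aox1, which encodes aldehyde oxidase, an enzyme that needs the molybdenum cofactor, did not reach the filter on low values. Its level was 1.28, 1.62 and 2.21 CPM with vehicle and 5.26, 3.76 and 5.16 CPM with 10HDA in cultures 1, 3 and 4, from 14 to 60 counts per library. All 3 treated libraries lay above the vehicle range. In the edgeR fit without a filter its log2 fold change was 1.46 (SE 0.27, adjusted P = 3.5e-05), where 1.09% of 26859 genes were called higher. That fit called 636 genes in both directions against 66 in the main one, so this adjusted P cannot be set beside those of the main comparison. Aox1 was the only gene of the 6 lists called in the fit without a filter, and in the fit with the filterByExpr filter.

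**Figure D4:**
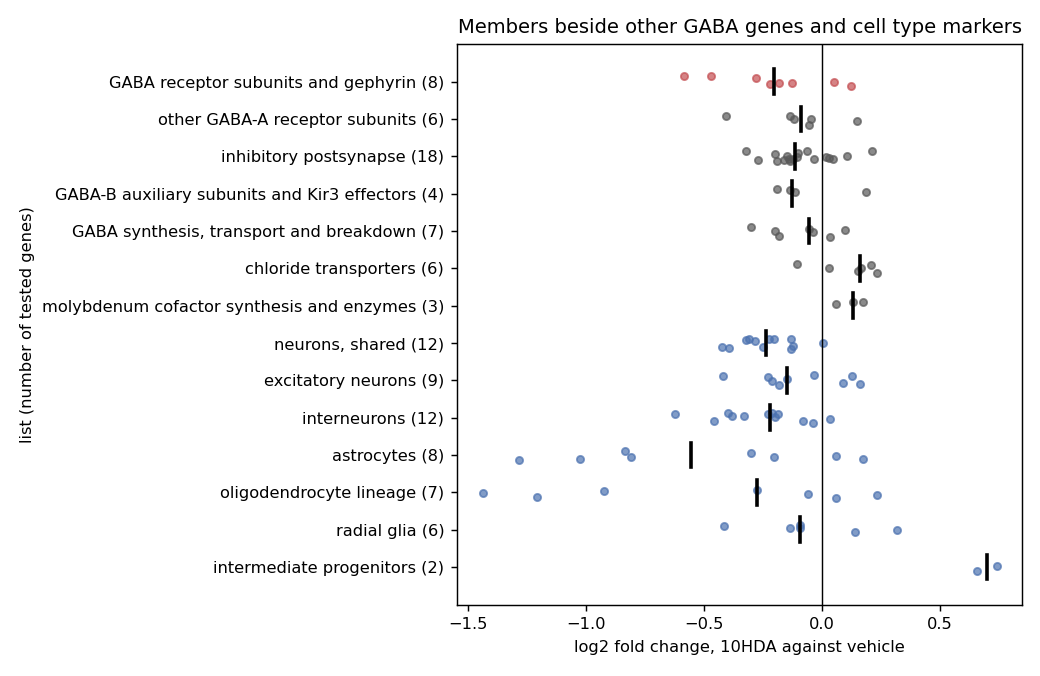
Fitted log2 fold changes of 10HDA against vehicle for each tested gene of a list, with the number of tested genes in brackets and the list median as a black bar. The 8 genes described here are red, other GABA lists grey and cell type markers blue. The red median lies at -0.20, near those of the neuronal (-0.24) and interneuron (-0.22) markers and above that of the astrocyte markers (-0.55).

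By position, Gabra2 and Gabrb1 lie 562 kb apart in a receptor gene cluster on chromosome 5. Gabra3 lies on the X chromosome with Gabrq, 168 kb away. Few windows of the 50-base read length in these transcripts also occur in another gene. They made up 0.205% of the windows of Gabra3 (2 windows shared with Gabra2), 0.548% for Gabra2 and none for Gabrb1, Gabrb2 and Gabbr2. For Gabra5 (3.59%) and Gphn (2.58%) the shared windows belong to 1 gene each, transcripts on the opposite strand.

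The genes most like the 8 were sought among all others tested, by Pearson correlation over the 6 libraries with the mean standardized log2 CPM of the 8. They were Camk1d (r = 0.997), Tecpr2 (0.996), Tmod2 (0.996), Prickle2 (0.995) and Psd3 (0.993). These values share libraries, depth and treatment and are the highest of all other genes tested, so they carry no p. Of the 8 themselves Gabbr2 (r = 0.93) and Gabrb1 (0.91) lay closest to the mean they contribute to, and Gabra5 (0.27) farthest.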

How the data were processed

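RNA was measured in 6 libraries, 3 per treatment, from 3 cultures. The authors aligned untrimmed 50-base single-end reads to mm10 with Subjunc (Subread 1.4.4) and summarized them over Gencode models with featureCounts. The deposited values are raw counts, which the authors had not normalized or filtered. Library totals ranged from 9144736 to 13367194 counts, and limits from 3 counts cover counting error only. The number of further sample columns was 0.

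Genes reaching 10 CPM in 3 or more libraries entered the test in edgeR 4.0.16 (R 4.3.3, quasi-likelihood test, TMM scaling, no culture term). The study's methods name edgeR, TMM, this filter and a false discovery rate of 0.1, but neither the edgeR test nor a culture term. P-values were adjusted over all genes tested (Benjamini-Hochberg), with a threshold of 0.1. The common biological coefficient of variation was 0.116 (0.0849 with culture). Alternatives were DESeq2 1.42.0, limma-voom (limma 3.58.1), other scalings and filters, culture as a block, a threshold of 0.05, and leaving out each library or culture. Fits were tested on simulated counts.

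The labels give the same replicate number to a vehicle and a 10HDA library. These were read as 1 culture and so as pairs, which the labels do not settle. Deviations from the group means correlated at 0.37, 0.23 and 0.62 within cultures 1, 3 and 4, and at -0.45 to 0.19 between cultures. The methods state a separate culture per replicate for a related experiment on these cells.

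The 8 genes and all lists were chosen with earlier results of these data known. All 8 are named, as are the genes past the threshold and the 3 with the smallest p of each GABA list, and the 5 genes most like the 8, except that some genes of these lists are not reported here. Slc12a5, marker genes, Xist, Gabrg1, Gabra4, Gabra6, Gabrp, Gabrr3 and Aox1 are named beyond this rule, after their values were seen.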

Additional observations from a re-analysis of the deposited data

How the results depend on the processing

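The directions of Gabra3, Gabra5, Gabrb1, Gabbr1, Gabbr2 and Gphn held under all 17 alternatives run for each. With scaling by library size alone Gabra3 had a log2 fold change of -0.51 (edgeR adjusted P = 0.13) and 0 of the 8 genes were called, and at a threshold of 0.05 on the adjusted P 0 were called. That scaling raised the median of all genes from -0.01 to 0.07. Leaving out 1 library or 1 culture gave from 0 to 2 calls among the 8, log2 fold changes of -0.66 to -0.52 for Gabra3 (-0.55, -0.55 and -0.62 without cultures 1, 3 and 4) and of -0.59 to -0.35 for Gabrb1 (-0.39 without 10HDA library 3), and a median over the 8 from -0.30 to -0.08. Gabra3 kept its call in 2 of these 9 fits, without vehicle library 1 and without 10HDA library 4. These fits have fewer libraries, and they called from 0 to 355 of all genes tested. Gabra2 turned negative without vehicle library 1 (-0.073), 10HDA library 4 (-0.036), culture 1 (-0.055) or culture 4 (-0.011), and reached at most 0.27 (0.22 without vehicle library 3), and Gabrb2 turned positive without vehicle library 3 (0.049) or culture 3 (0.076), with a lowest value of -0.50. The cause was not tested.

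With culture as a replicate block 3 of the 8 genes were called, and Gabrb1 (-0.47, edgeR adjusted P = 0.021) and Gabbr2 (-0.27, 0.0996) passed the threshold. Over all genes the block gave 945 calls against 66 without it, DESeq2 gave 170 and no filter gave 636. Library size alone gave 45, of which 24 were lower and 21 higher, against 45 lower and 21 higher with TMM. The block changed no other call among the 8.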
